A study of Mus musculus with 8 samples.

Results

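The chemokines and their receptors were taken as the genes whose mouse symbol begins with Cxcl, Ccl, Cx3cl, Xcl, Cxcr, Ccr, Cx3cr, Xcr or Ackr followed by a number. By this rule 57 of the 19096 genes named on the array were members, measured by 72 of its 41174 probes. They comprised 34 ligands, 19 receptors and 4 atypical receptors. The arrays held RNA of Thy1+ cells from the testes of C57BL/6 mouse pups on postnatal day 4. Of the 8 one-colour Agilent arrays, 4 came from Glis3KO2 pups and 4 from wild type (WT) pups, untreated and kept with their mothers. The labels call the cells testis spermatogonial progenitors and give no construction for the Glis3KO2 allele. The design text speaks of 3 testes per genotype, whereas the labels hold 4 samples of each, and nothing states that these came from separate animals. What the p-values measure is thus the spread among these samples, and part of it may be technical.

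Chemokines are small secreted proteins that steer migrating cells. They are grouped as CC, CXC, CX3C and XC by the spacing of their first conserved cysteines. Their receptors span the membrane and signal through inhibitory G proteins, whereas the atypical receptors bind chemokines without that coupling and clear or redistribute them. In the developing gonad, Cxcl12 from somatic cells draws germ cells that carry Cxcr4, and the same pair is known for its role in the homing of spermatogonial stem cells. Most other members guide leukocytes, which in the testis are mainly macrophages. Glis3 is a zinc finger transcription factor.

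All values below are log2 processed signals relative to the 75th percentile of the array, so 0 marks that percentile and 1 unit is a doubling of signal. Levels are compared between arrays and never between probes. The summed levels of marker lists add the linear signals of different probes, so the brightest probes weigh most in them. The 75th percentile of signal was between 251 and 458 in Glis3KO2 arrays and between 243 and 533 in WT arrays. Between 85.96 and 90.29 percent of spots per array were well above background. Glis3 had -1.98, -2.18, -1.18 and -1.32 in Glis3KO2 replicates 1 to 4, against -1.09, -1.01, 0.57 and 0.60 in WT replicates 1 to 4. Its groups did not overlap, but the difference of -1.43 (SE 0.45) did not pass limma's test after adjustment over all genes (adjusted p = 0.697), and the sources used here do not say whether its probe is within the deletion. Thy1, the surface protein used for isolation, differed by 0.65 (SE 0.44). WT replicates 3 and 4 stood apart on the first principal component, at 69.1 and 60.0 against -55.9 to 3.85 for the other 6 arrays. Signals well above background on all 8 arrays were found for 18 of 19 germ cell and 20 of 21 macrophage markers tested. The same held for 17 of 17 lymphocyte and 19 of 20 stromal markers, and for 16103 of all 17513 genes tested. The marker counts are near that general share, so they do not by themselves show which cell types were present. In bulk RNA, fewer cells of a type and less RNA per cell cannot be told apart.

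Of the 57 members, 48 had a probe whose spot was well above background on 4 or more arrays and were tested: 27 ligands, 17 receptors and all 4 atypical receptors. No member passed limma's test at an adjusted p under 0.05, and neither did any of the 17513 genes tested (0% called). The smallest adjusted p among members was 0.697, against 0.0675 among all genes. At an unadjusted p under 0.05, 2 of 48 members stood out (4.17%), the receptor Ccr1 and the ligand Cxcl14, where 6.90% of all genes did. Both were higher in Glis3KO2 cells, the direction in which 2.15% of all genes passed that threshold, and 0 members passed it as lower, against 4.75% of all genes. With the replicate number as a block, 4 members passed it (Ccl12, Ccr1, Cxcl12 and Cxcl14), where 10.7% of all genes did, and the smallest adjusted p of a member was 0.383. The Glis3KO2 mean was above the WT mean for 23 members and below it for 25, so 47.9% were higher, against 40.8% of all genes. The median difference of the members was -0.06, against -0.08 over all genes. Differences of under 0.5 in size were found for 34 of the 48 members and of over 1 for 4. The standard errors were between 0.22 and 0.75, with a median of 0.36.

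**Figure D1:**
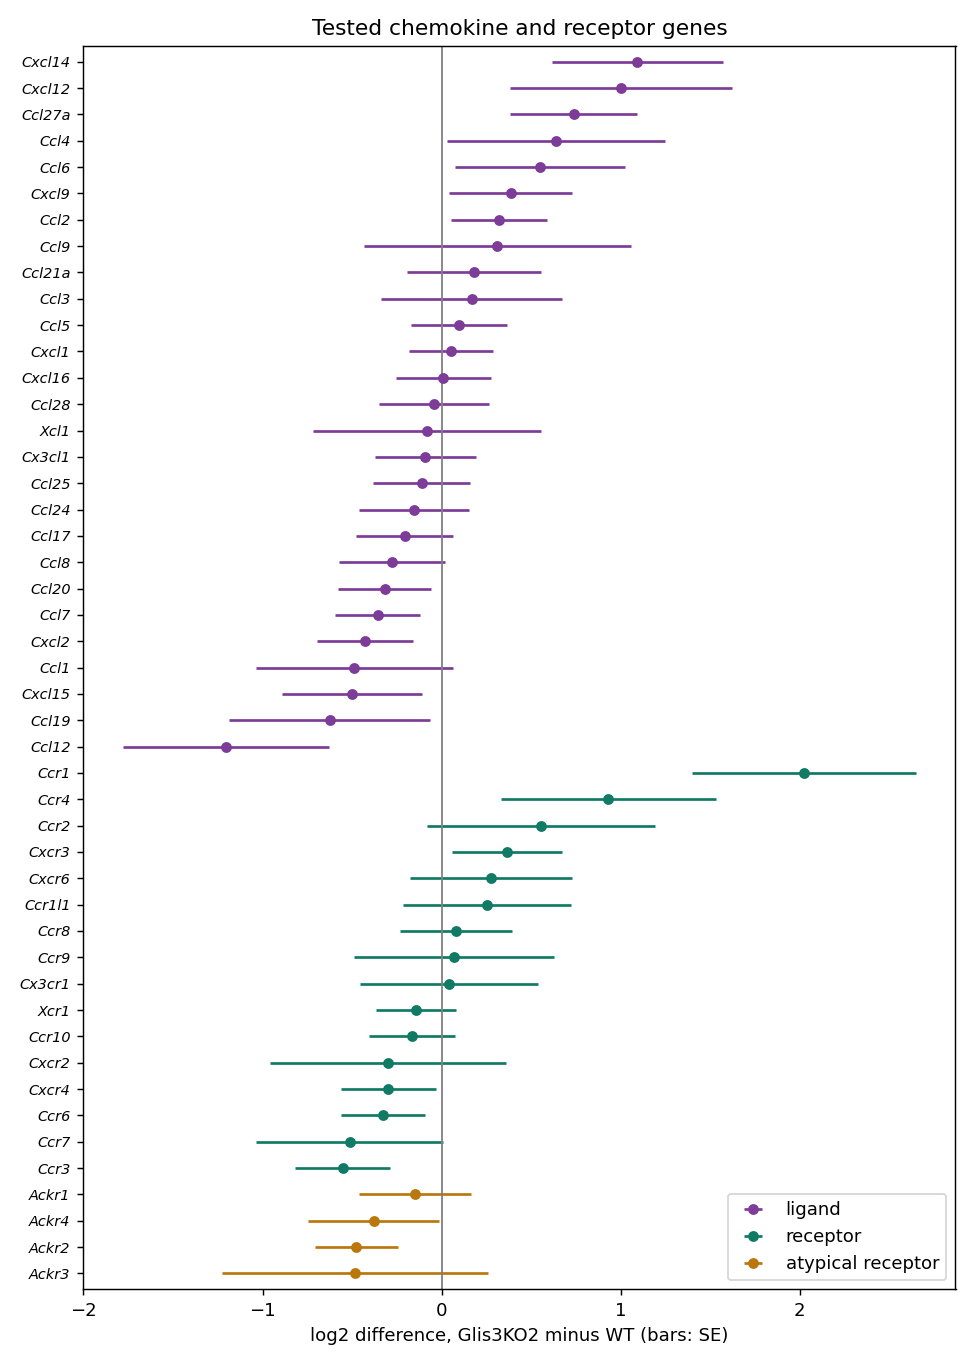
Difference in log2 signal, Glis3KO2 minus WT, for 47 of the 48 tested chemokine and receptor genes, by ligands, receptors and atypical receptors; points are differences of 4 against 4 arrays and bars are limma's standard errors. Ccr1 lies farthest to the right at 2.02 and Ccl12 farthest to the left at -1.20, and 34 of the 47 lie within 0.5 of 0.

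Neither gene of the homing pair passed the test after adjustment over all genes. Cxcl12, the ligand, had 2.44, 4.79, 2.83 and 2.16 in Glis3KO2 replicates 1 to 4, against 2.49, 3.19, 1.33 and 1.19 in WT replicates 1 to 4. The highest array was Glis3KO2 replicate 2, the lowest were WT replicates 3 and 4, and the groups overlapped. Cxcl12 averaged 3.05 ± 1.19 in Glis3KO2 cells and 2.05 ± 0.96 in WT cells (SD, n = 4 each), a difference of 1.002 (SE 0.62; 95% confidence interval -0.38 to 2.38), or 2.003-fold. It was higher in 3 of 4 replicate pairs, with an adjusted p of 0.698 and a two-sided exact permutation p of 0.257. The difference was 0.72 on the first slide and 1.28 on the second. It came to 0.42 without Glis3KO2 replicate 2 and to 0.21 without WT replicates 3 and 4. A second probe, for another RefSeq transcript of Cxcl12, gave a difference of 0.85 and was higher in 4 of 4 pairs. Blocking on replicate number, the fit gave Cxcl12 the same difference with an SE of 0.32 and an adjusted p of 0.424.

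The level of Cxcl12 moved across arrays with the stromal markers, a list that is known for genes of collagen-producing cells. The mean of 20 stromal markers, each centred on its own mean over the arrays, was 0.16, 1.45, 0.21 and -0.04 in Glis3KO2 replicates 1 to 4, against -0.32, 0.68, -0.995 and -1.15 in WT replicates 1 to 4. The highest and the 2 lowest arrays were thus those of Cxcl12. All 20 stromal markers had the higher mean in Glis3KO2 cells, 3 of them at an unadjusted p under 0.05 (40.8% and 2.15% of all genes), and their summed level, each relative to the array's 75th percentile, spanned 205 to 620 in Glis3KO2 arrays and 94.3 to 362 in WT arrays. Their part in the Cxcl12 values was not tested.

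Cxcr4, the receptor on germ cells and on many leukocytes, had 0.14, 0.54, 0.55 and 1.17 in Glis3KO2 replicates 1 to 4, against 1.20, 0.98, 0.78 and 0.64 in WT replicates 1 to 4. Glis3KO2 replicates 1 to 3 lay below all WT arrays and replicate 4 lay just below the highest of them, so the groups overlapped. Cxcr4 averaged 0.60 ± 0.43 in Glis3KO2 cells and 0.90 ± 0.25 in WT cells (SD, n = 4 each), a difference of -0.30 (SE 0.27; 95% confidence interval -0.89 to 0.29). It was lower in 3 of 4 pairs, with an adjusted p of 0.765 and a two-sided exact permutation p of 0.229. The difference was -0.64 on the first slide and 0.05 on the second. A second Cxcr4 probe gave -0.19. Germ cell markers moved the other way from the stromal list: 0 of 19 had the higher mean in Glis3KO2 cells, 7 were lower at an unadjusted p under 0.05 (40.8% and 4.75% of all genes), and their summed level spanned 30.5 to 49.4 in Glis3KO2 arrays and 34.0 to 119 in WT arrays. The germ cell markers were highest in WT replicates 3 and 4. Without those 2 arrays the Cxcr4 difference was -0.49. The part of germ cell content in the Cxcr4 values was not tested.

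Ackr3, the atypical receptor that binds and removes Cxcl12, had -2.96, -1.85, -3.62 and -5.86 in Glis3KO2 replicates 1 to 4, against -3.48, -3.63, -1.97 and -3.28 in WT replicates 1 to 4. Its Glis3KO2 arrays spread more widely than its WT arrays, and the lowest, replicate 4, was not well above background. The difference of -0.48 (SE 0.74) turned to 0.28 without that array.

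**Figure D2:**
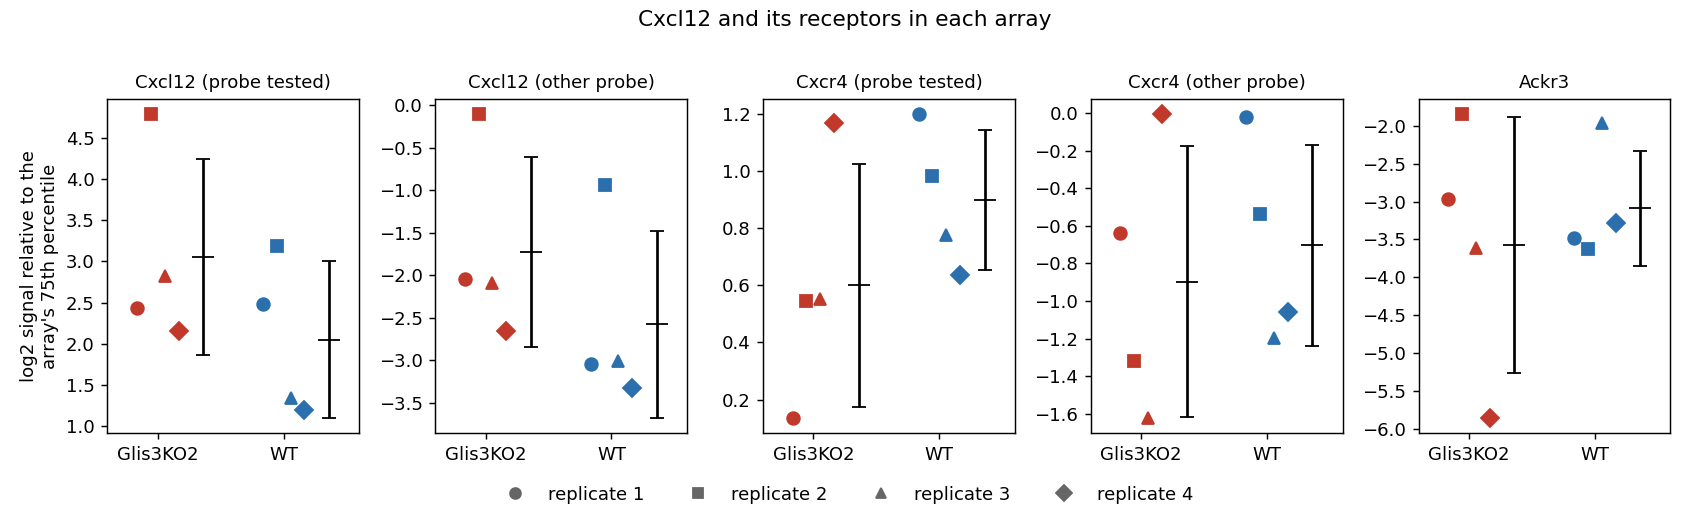
Log2 signal relative to the 75th percentile of each array for Cxcl12, Cxcr4 and Ackr3, with a point per array and the mean and SD of 4 arrays per genotype, Glis3KO2 left and WT right. The 2 groups overlap for each gene, and Cxcl12 in Glis3KO2 replicate 2 stands highest at 4.79.

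The promoters of the 2 homing genes are shown with that of Ccr1, the member of largest difference, because Glis3 binds DNA. Each window runs from 250 bases before to 50 after the start of transcription, 5′ to 3′ on the gene's strand, as given by RefSeq for GRCm38.p6. Capitals mark matches, on either strand, to the GC box GGGCGG, the TATA box TATAAA, the PU.1 core GAGGAA and the GLIS core TGGGGGGT. The Cxcl12 window is chr6:117168285-117168584, forward strand, the Cxcr4 window chr1:128592250-128592549, reverse strand, and the Ccr1 window chr9:123968643-123968942, reverse strand.
Cxcl12: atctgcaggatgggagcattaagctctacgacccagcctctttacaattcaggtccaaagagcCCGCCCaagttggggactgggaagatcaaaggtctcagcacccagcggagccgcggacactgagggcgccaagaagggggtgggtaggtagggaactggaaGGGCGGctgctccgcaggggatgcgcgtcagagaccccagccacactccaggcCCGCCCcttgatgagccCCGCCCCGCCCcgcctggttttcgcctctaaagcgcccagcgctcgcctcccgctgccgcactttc
Cxcr4: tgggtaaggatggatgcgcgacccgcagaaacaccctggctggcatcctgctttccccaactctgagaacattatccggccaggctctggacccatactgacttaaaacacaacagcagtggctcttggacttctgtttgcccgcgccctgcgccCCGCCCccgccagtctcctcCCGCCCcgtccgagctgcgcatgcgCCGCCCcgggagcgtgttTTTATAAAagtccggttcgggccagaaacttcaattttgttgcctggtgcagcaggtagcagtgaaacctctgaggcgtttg
Ccr1: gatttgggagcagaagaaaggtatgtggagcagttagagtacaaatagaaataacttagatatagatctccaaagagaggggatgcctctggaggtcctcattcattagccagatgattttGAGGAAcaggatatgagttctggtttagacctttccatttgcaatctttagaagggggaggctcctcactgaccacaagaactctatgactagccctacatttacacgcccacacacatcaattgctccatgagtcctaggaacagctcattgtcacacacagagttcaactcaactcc
The Cxcl12 window held 5 GC boxes and was 64.7% G or C, against a median of 52.7% over all 32851 windows. The Cxcr4 window held 3 GC boxes and 2 overlapping TATA matches on opposite strands. The Ccr1 window held 1 PU.1 core, a sequence bound by the myeloid factor PU.1, and was 44.0% G or C. None of the 3 windows held the GLIS core. Windows were found for 44 of the 57 members, 48 windows in all. Among these the GLIS core lay in 2, Ccl20 and Cxcl1, whose differences were -0.32 (SE 0.26) and 0.05 (SE 0.24), and it lay in 1.53% of all windows. GC boxes lay in 10 of the 48 windows (35.7% of all windows), TATA boxes in 14 (13.6%) and PU.1 cores in 15 (28.3%). A match describes these letters and is not a binding site.

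Among the other CXC ligands, Cxcl14, a chemokine of epithelial and stromal cells, differed most. Cxcl14 had -0.39, -1.09, -0.33 and -2.45 in Glis3KO2 replicates 1 to 4, against -1.66, -1.70, -2.78 and -2.49 in WT replicates 1 to 4. Glis3KO2 replicates 1 to 3 lay above all WT arrays and replicate 4 lay among the WT arrays. The difference was 1.09 (SE 0.48), or 2.13-fold, higher in 4 of 4 pairs, with an adjusted p of 0.697 and a two-sided exact permutation p of 0.114. It was 1.86 on the first slide and 0.33 on the second, and 0.62 without WT replicates 3 and 4. Of the 7 CXC ligands tested, 5 had the higher mean in Glis3KO2 cells. Cxcl9, an interferon-induced ligand of Cxcr3, differed by 0.39 and Cxcl2, a neutrophil attractant, by -0.43 (SE 0.27), lower in all 4 pairs. Cxcl1, another neutrophil attractant, differed by 0.05, and Cxcl16, the ligand of Cxcr6, by 0.01. A second Cxcl16 probe gave 0.42.

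Cxcl15, the lungkine of mice, had -3.27, -4.10, -5.16 and -3.99 in Glis3KO2 replicates 1 to 4, against -3.55, -4.22, -3.18 and -3.56 in WT replicates 1 to 4. The difference was -0.50 (SE 0.39), with Glis3KO2 replicate 3 lowest and not well above background. Its second probe had -4.75, -6.10, -5.92 and -5.09 in Glis3KO2 replicates 1 to 4, against -4.33, -5.31, -4.16 and -4.38 in WT replicates 1 to 4. Its signal exceeded background clearly on 1 of 4 Glis3KO2 and on 4 of 4 WT arrays, and it differed by -0.92.

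The 18 CC ligands tested showed no common direction, with 8 means higher and 10 lower in Glis3KO2 cells. Ccl12, a monocyte attractant that acts through Ccr2, had -1.86, -4.23, -3.91 and -4.55 in Glis3KO2 replicates 1 to 4, against -2.05, -1.75, -3.38 and -2.55 in WT replicates 1 to 4. Glis3KO2 replicates 2 to 4 lay below all WT arrays, and replicate 1 lay above 3 of them. The difference was -1.20 (SE 0.58, adjusted p = 0.697), -0.17 on the first slide and -2.24 on the second. Without WT replicates 3 and 4 it was -1.74.

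Ccl12 is one of a run of monocyte and eosinophil attractants that lie next to each other on chromosome 11 in the order Ccl2, Ccl7, Ccl11, Ccl12, Ccl8 and Ccl1. Of the 5 tested there, 4 had the lower mean in Glis3KO2 cells, with differences of -0.36 for Ccl7, -0.28 for Ccl8 and -0.49 for Ccl1. Ccl2, the main monocyte attractant, differed by 0.32 (SE 0.27). Elsewhere on chromosome 11 lie Ccl5, Ccl9, Ccl6, Ccl3 and Ccl4, which include ligands of Ccr1. All 5 had the higher mean in Glis3KO2 cells, with differences between 0.10 and 0.64, and none passed the test. Ccl4, a product of activated macrophages and lymphocytes, had -0.70, 0.55, -1.42 and 0.33 in Glis3KO2 replicates 1 to 4, against -2.05, 0.74, -1.19 and -1.30 in WT replicates 1 to 4. Its difference was 0.64 (SE 0.61), with the highest array in WT. Ccl6, a macrophage chemokine, had 0.71, 1.64, 1.01 and 2.28 in Glis3KO2 replicates 1 to 4, against 1.23, 1.76, -0.32 and 0.76 in WT replicates 1 to 4. Its difference was 0.55 (SE 0.47) and became -0.086 without WT replicates 3 and 4. Of these 5, Ccl3, Ccl5, Ccl6 and Ccl9 had the lower mean in Glis3KO2 cells without those 2 arrays.

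Ccl27a, a skin chemokine and ligand of Ccr10, had -0.84, -1.14, -2.12 and -1.83 in Glis3KO2 replicates 1 to 4, against -2.76, -1.64, -1.96 and -2.51 in WT replicates 1 to 4. The 2 highest arrays were Glis3KO2, the groups overlapped, and the difference was 0.74 (SE 0.36). Ccl27a has a near-identical copy, Ccl27b, so its signal may come from either. Ccl19, which draws lymphocytes and dendritic cells through Ccr7, had -0.87, -1.11, -0.26 and -0.48 in Glis3KO2 replicates 1 to 4, against -0.93, -0.07, 1.81 and -1.04 in WT replicates 1 to 4. The difference of -0.63 (SE 0.56) rested on WT replicate 3: without that array it was -0.0039. A second Ccl19 probe gave -0.13 over all arrays. Ccl21a, the other Ccr7 ligand, has near-identical copies and differed by 0.18, and Ccl19 has pseudogenes that resemble it. The remaining CC ligands differed by less than 0.4 in size: Ccl20, the ligand of Ccr6, by -0.32, Ccl17, a ligand of Ccr4, by -0.21, Ccl24, an eosinophil attractant, by -0.15, Ccl25, the ligand of Ccr9, by -0.11, and Ccl28, a mucosal chemokine, by -0.04. Cx3cl1, the membrane-bound fractalkine, differed by -0.09 (SE 0.28).

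Xcl1, a lymphocyte product, had 0.37, 0.40, -1.16 and 0.46 in Glis3KO2 replicates 1 to 4, against 1.22, 1.32, -1.07 and -1.09 in WT replicates 1 to 4. Its mean difference of -0.08 (SE 0.64) covered a split within WT: replicates 1 and 2 were the highest of the 8 arrays, and the difference without replicates 3 and 4 was -1.26.

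Among the receptors, Ccr1 was the member farthest apart between genotypes. Ccr1, a receptor of macrophages and neutrophils for ligands such as Ccl3 and Ccl5, had -2.56, -2.68, -3.93 and -2.38 in Glis3KO2 replicates 1 to 4, against -3.99, -4.74, -6.90 and -4.02 in WT replicates 1 to 4. Every Glis3KO2 array was above every WT array, although Glis3KO2 replicate 3 exceeded WT replicate 1 by little. Ccr1 was the only tested member whose groups did not overlap, where 3.50% of all genes were separated in either direction and 0.902% with Glis3KO2 higher. The means were -2.89 ± 0.71 in Glis3KO2 cells and -4.91 ± 1.37 in WT cells (SD, n = 4 each). The difference was 2.02 (SE 0.62; 95% confidence interval 0.63 to 3.42), or 4.07-fold, with an adjusted p of 0.697 and a two-sided exact permutation p of 0.0286, the smallest that 70 labelings allow. It was 2.19 on the first slide, 1.85 on the second and 1.48 without WT replicates 3 and 4. The signal was dim, with WT replicate 3 not well above background. Another background correction was normexp with an offset of 50 on the median spot signals, and such an offset weighs most on dim signals. With it and scaling to the same percentile the Ccr1 difference was -0.24. With the same correction and quantile normalization it was 0.36.

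Ccr2, a receptor of monocytes and macrophages, overlapped between genotypes and was split among the WT arrays. Ccr2 had 1.91, 2.15, 0.74 and 2.62 in Glis3KO2 replicates 1 to 4, against 2.31, 2.60, -0.0027 and 0.28 in WT replicates 1 to 4. WT replicates 3 and 4 were the lowest of the 8 arrays. The Ccr2 difference was 0.56 (SE 0.64), and -0.60 without WT replicates 3 and 4. A second Ccr2 probe gave 0.22, and -0.60 without those 2 arrays. The centred mean of 21 macrophage markers was 0.64, -0.02, -0.43 and 0.49 in Glis3KO2 replicates 1 to 4, against 0.57, 0.40, -0.82 and -0.83 in WT replicates 1 to 4, also lowest in WT replicates 3 and 4. Of the 21, 18 had the higher mean in Glis3KO2 cells, 0 at an unadjusted p under 0.05 (40.8% and 2.15% of all genes). Their summed level spanned 60.3 to 136 in Glis3KO2 arrays and 41.5 to 131 in WT arrays. The part of macrophage content in these values was not tested.

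Ccr4, a receptor of helper T cells, had -1.06, -3.06, -1.58 and -1.18 in Glis3KO2 replicates 1 to 4, against -1.46, -2.04, -3.05 and -4.07 in WT replicates 1 to 4. The difference of 0.93 (SE 0.60) was 0.02 without WT replicates 3 and 4. Ccr3, the eotaxin receptor, had -1.22, -1.08, -1.69 and -1.81 in Glis3KO2 replicates 1 to 4, against -0.70, -1.40, -0.76 and -0.72 in WT replicates 1 to 4. Only WT replicate 2 reached into the Glis3KO2 range, and the difference was -0.55 (SE 0.27, adjusted p = 0.697). A second Ccr3 probe gave -0.15. The centred mean of 17 lymphocyte markers was 0.19, 0.13, -0.40 and 0.40 in Glis3KO2 replicates 1 to 4, against 0.31, 0.45, -0.54 and -0.55 in WT replicates 1 to 4. Of these, 14 had the higher mean in Glis3KO2 cells and 0 passed an unadjusted p under 0.05 (40.8% and 6.90% of all genes). Their summed level spanned 11.1 to 20.5 in Glis3KO2 arrays and 8.06 to 22.8 in WT arrays.

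At the probe tested, the other receptors differed by 0.51 or less in size. Ccr7, the lymph node homing receptor, differed by -0.51 (SE 0.52), and Ccr6 by -0.33 (SE 0.24). Cxcr2, a neutrophil receptor, differed by -0.30 over all arrays but by -1.59 on the first slide and 0.99 on the second. A second Cxcr2 probe did not show this split: it gave -0.55, with -0.53 on the first slide and -0.56 on the second, lower in 4 of 4 pairs. Cxcr3, the receptor of activated T cells, differed by 0.36, Cxcr6 by 0.28, Ccr1l1, a mouse relative of Ccr1, by 0.25, and Ccr8 by 0.08. Ccr9, the receptor for Ccl25, differed by 0.07 and Cx3cr1, the fractalkine receptor of macrophages, by 0.04. Ccr10 and Xcr1, the receptor of Xcl1 on dendritic cells, differed by -0.17 and -0.14. Of the 17 receptors tested, 10 had the higher mean in Glis3KO2 cells and the median difference was 0.07. Without WT replicates 3 and 4, 3 of the 17 had the higher mean and the median was -0.33. The median over all genes was then -0.03, and their share with the higher mean was not counted. Ccr9, Cxcr6, Xcr1, Ccr1, Ccr1l1, Ccr3 and Ccr2 are neighbours in that order on chromosome 9, and their differences spanned -0.55 to 2.02, so these adjacent genes did not share one difference.

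All 4 atypical receptors had the lower mean in Glis3KO2 cells, with a median difference of -0.43, and none passed the test. Ackr2, which degrades inflammatory CC chemokines, had -2.16, -2.52, -2.03 and -2.50 in Glis3KO2 replicates 1 to 4, against -1.67, -2.21, -1.74 and -1.69 in WT replicates 1 to 4. It was lower in 4 of 4 pairs, by -0.48 as a mean difference (SE 0.23; 95% confidence interval -0.99 to 0.04), with WT replicate 2 inside the Glis3KO2 range. Ackr4, a scavenger of Ccl19, Ccl21 and Ccl25, differed by -0.38 (SE 0.37). Ackr1, the Duffy antigen receptor of erythroid and endothelial cells, differed by -0.15 (SE 0.31), and its second probe by 0.10. Ackr1 was the only one of the 15 members with several kept probes whose probes differed in sign.

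**Figure D3:**
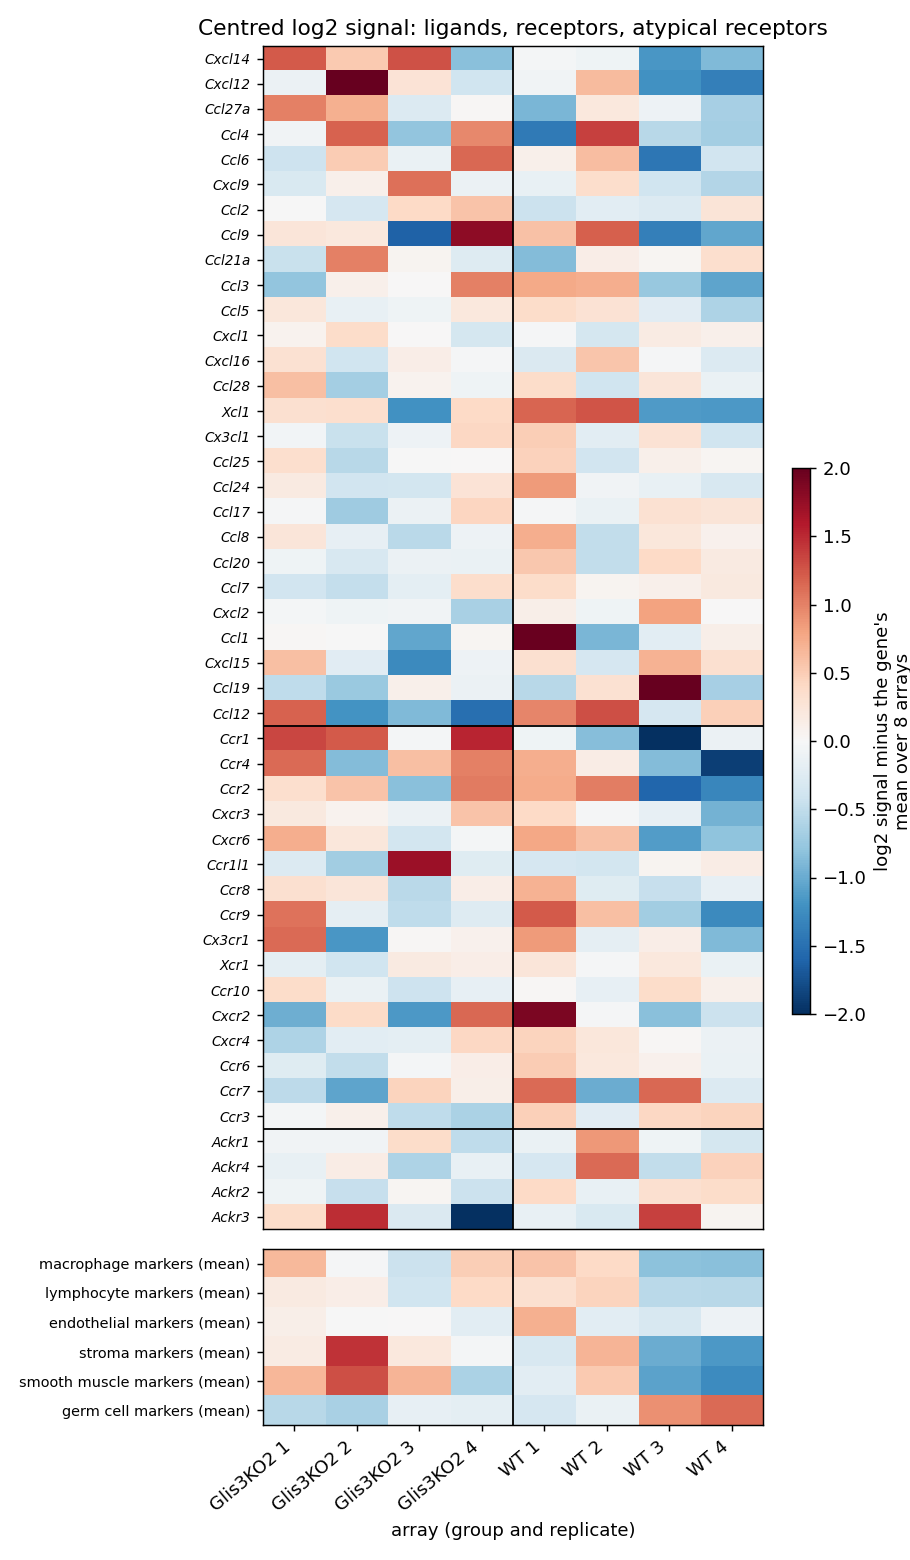
Log2 signal of 47 of the 48 tested members in each array (columns, Glis3KO2 left, WT right), centred on the gene's mean over the 8 arrays, with the centred means of 6 marker lists below; red is above the mean and blue below, and the scale stops at 2 log2 units. WT replicates 3 and 4 are blue for Cxcl12, Ccr2 and Cxcr6 and for the macrophage, lymphocyte, stroma and smooth muscle lists, and red for the germ cell list.

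WT replicates 3 and 4 were the 2 lowest of all arrays for 9 of the 48 members, among them Ccl5, Ccr2, Cxcl9, Cxcl12, Cxcl14 and Cxcr3. Leaving them out left 11 members with the higher mean in Glis3KO2 cells and 37 with the lower, against 23 and 25 with all arrays. The direction turned from higher to lower for 12 members, 5 ligands (Ccl3, Ccl5, Ccl6, Ccl9 and Cxcl16) and 7 receptors (among them Ccr2, Ccr9, Cx3cr1 and Cxcr6), and from lower to higher for 0. The median difference of the members was then -0.21, against -0.03 over all genes, and no member passed the adjusted threshold. The counts of lowest arrays, directions and turns were not made over all genes. They can thus not be called particular to the members. WT replicates 3 and 4 lie on different slides. Both WT arrays of each slide sat at positions 1 and 2 and both Glis3KO2 arrays at positions 3 and 4, so position and genotype cannot be told apart.

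**Figure D4:**
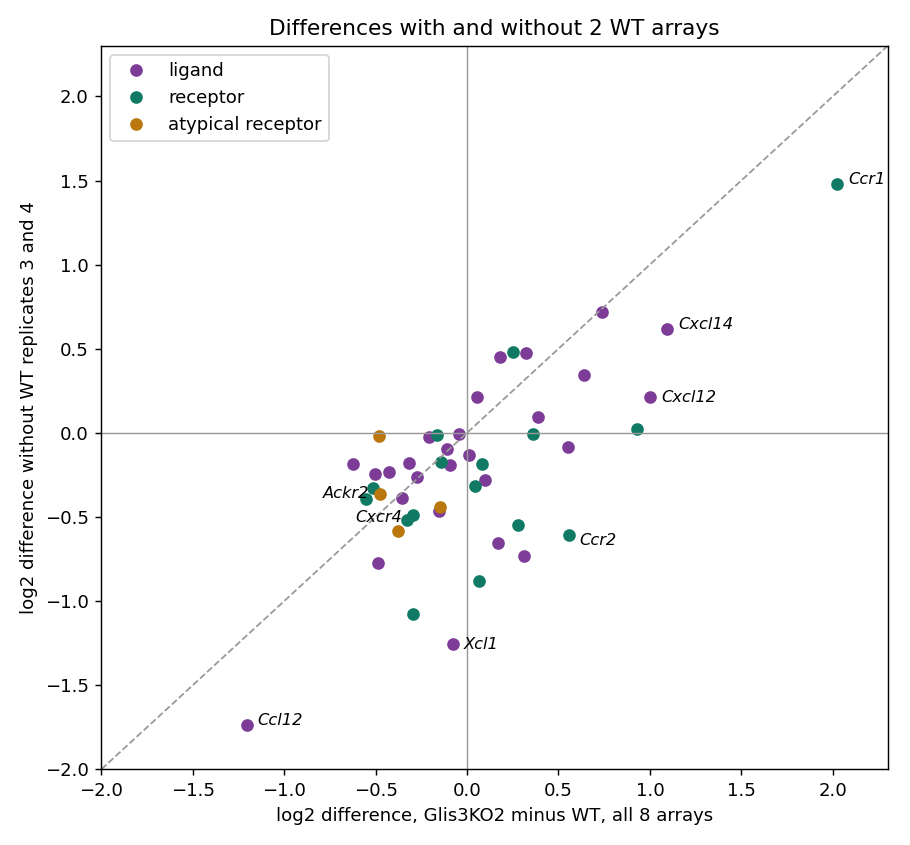
Difference in log2 signal, Glis3KO2 minus WT, of 47 of the 48 tested members with all 8 arrays (horizontal axis) and without WT replicates 3 and 4 (vertical axis). The 11 of them that change from higher to lower lie right of 0 and below 0, and Ccr1 stays at 2.02 and 1.48.

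The remaining 9 members were well above background on too few arrays to be tested. Ccl22, Cxcl3, Cxcl5 and Cxcl17 were well above background on 0 of 8 arrays, Cxcl10 and Cxcr5 on 3, and Cxcl13 on 2. Ccl11, the eosinophil attractant eotaxin, reached that level on 2 of 4 Glis3KO2 and 0 of 4 WT arrays, with means of -4.94 ± 0.47 in Glis3KO2 cells and -5.78 ± 0.22 in WT cells (SD, n = 4 each). Cxcr1, a neutrophil receptor, reached it on 0 of 4 Glis3KO2 and 1 of 4 WT arrays, with means of -5.68 ± 0.11 in Glis3KO2 cells and -4.91 ± 0.21 in WT cells (SD, n = 4 each). With so few arrays above background, no fold is given for either.

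Genes that act downstream of chemokine receptors or beside them were described from a list of 65, of which 63 were tested. In Glis3KO2 cells 39 had the higher mean and 24 the lower, with a median difference of 0.10, and 2 of 63 (3.17%) passed an unadjusted p under 0.05, 1 in each direction, against 6.90% of all genes. Over all genes 40.8% had the higher mean and the median difference was -0.08. Gnai1, an inhibitory G protein subunit that couples to these receptors, had 3.47, 3.92, 3.77 and 3.18 in Glis3KO2 replicates 1 to 4, against 3.08, 3.46, 2.39 and 2.16 in WT replicates 1 to 4. The difference was 0.82 (SE 0.32, adjusted p = 0.697), with the 2 lowest arrays again WT replicates 3 and 4. Ppbp, a platelet CXC chemokine whose symbol falls outside the rule for members, had -4.76, -5.43, -7.11 and -5.75 in Glis3KO2 replicates 1 to 4, against -4.68, -4.75, -4.73 and -4.26 in WT replicates 1 to 4. It was well above background on 1 of 4 Glis3KO2 and 3 of 4 WT arrays, so it met the filter of 4 arrays mainly through WT. Its groups did not overlap, where 2.60% of all genes were separated with Glis3KO2 lower. The Ppbp difference was -1.16 (SE 0.43, adjusted p = 0.697), and -0.15 with normexp and quantile normalization. Since it rests largely on signals near background, its size is uncertain. Rgs2, which shortens G protein signals, differed by 1.18 (SE 0.54), and Grk5, a receptor kinase, by 0.52. Stat5b, a transcription factor of cytokine receptors, differed by 0.42, and Tiam1, an activator of the small GTPase Rac, by -0.65. As means over their kept probes, Gnai1 differed by 1.09, Rgs2 by 1.20, Grk5 by 0.40 and Stat5b by 0.19. None of the 63 passed after adjustment over all genes.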

How the data were processed

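RNA was amplified with NuGEN Ovation Pico WTA and labelled with Cy3, per the labels' protocols. The authors deposited scanner files whose headers name Feature Extraction 12.0.0.7 of Agilent, and in these the processed signal is an intensity, background-subtracted, on a linear scale. The deposited value table equalled it on 100% of spots. Probes were named through their RefSeq accession (28223 with 1 gene, 12951 unnamed). Here log2 of the intensity minus the array's 75th percentile was taken, outlier spots (73 to 109 per array) were left out, and spots of a probe were averaged. Probes whose spots were well above background on 4 or more of 8 arrays were kept, with the brightest per gene. Genotype was fitted with limma 3.58.1 in R 4.3.3, adjusted by Benjamini-Hochberg over 17513 genes, and the script was tested on simulated data. No depth applies: precision is limited by the 4 arrays of each genotype.

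The members, gene lists and tests were chosen with earlier results of these data known. Values per array are given for Cxcl12, Cxcr4 and Ackr3, members at an unadjusted p under 0.05 or with groups that do not overlap, the 12 of largest difference, members well above background on at most 1 array of one genotype and at least 3 of the other, and up to 6 other pathway genes of smallest p (Gnai1 and Ppbp in full). Values of Ackr2 and Xcl1 are given in addition, chosen after they were seen. Arrays of the same replicate number deviated together (correlations of 0.16, 0.34, 0.18 and 0.13 over 17507 genes). Glis3KO2 replicate 4 correlated at 0.143 with WT replicate 3, above 0.134 with WT replicate 4. Glis3KO2 replicate 3 had 0.125 with WT replicate 4, against 0.178 with WT replicate 3. The number was taken to pair the arrays, from the data and not from the labels. These values do not settle the pairing among replicates 3 and 4. Alternatives covered background correction, normalization, the filter, probe choice, slide and replicate blocks, array weights and leaving out arrays. Normexp was run on median spot signals with an offset of 50. Counts cover all tested members, but the values of 1 of them are not reported here.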

Additional observations from a re-analysis of the deposited data

Results flagged for a closer look

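In 5 of 100 groups of 4 arrays examined, the lowest array lay apart from the other 3 by more than Dixon's 95% critical value for a group of 4, and chance alone gives about 1 in 20. Ackr2 was at -2.21 in WT replicate 2, where its nearest WT array was at -1.74. Ccr3 was at -1.40 in the same WT array, with the nearest at -0.76. Without that array the Ccr3 difference was -0.72. Ccl1 was at -4.60 in Glis3KO2 replicate 3, with the nearest Glis3KO2 array at -3.57. Xcl1 was at -1.16 in the same array, with the nearest at 0.37. Cxcl2 was at -3.06 in Glis3KO2 replicate 4, with the nearest at -2.50.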

How the results depend on the processing

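Under 19 alternatives no member passed the adjusted threshold, and the count of all genes past it was 0 except with quantile normalization of the log2 signal, where it was 1. Of 490 values, 477 kept their direction and side of the threshold or moved little. No gene passed the threshold in the main fit, so keeping its side says little for a single gene. The 477 include differences that shrank strongly in size. Without WT replicates 3 and 4, Cxcl12 came to 0.21 and Ccr4 to 0.02. Ccl19 came to -0.0039 without WT replicate 3, and Cxcl15 to -0.0051 with normexp and quantile normalization. The count of members at an unadjusted p under 0.05 was 2 of 48, against 6.90% of all genes. It was 4 with the replicate block (10.7% of all genes), with array weights (13.2%) and with normexp at the 75th percentile (8.80%). Without a filter on dim probes it was 4 of 57 (7.18% of all genes). With probes well above background on all 8 arrays it was 1 of 43 (6.64%), and Ccr1 could not be tested. It ranged from 1 to 7 when each array was left out. The 7 came without WT replicate 2 (13.75% of all genes) and the 1 without WT replicate 4 (4.8%). The median difference of the members was -0.28 with normexp at the 75th percentile, a setting that moved the median of all genes to -0.23, against -0.08. Ccr1 reversed to -0.24 there. Ackr3 reversed to 0.28 without Glis3KO2 replicate 4 (range over left-out arrays -1.06 to 0.28). Without WT replicates 3 and 4, Ccl6 and Ccr2 reversed to -0.086 and -0.60. The causes were not tested. Over left-out arrays Cxcl12 spanned 0.42 to 1.38 and Cxcr4 -0.49 to -0.14. The adjusted p over all alternatives spanned 0.372 to 1 for Cxcl12, 0.596 to 1 for Cxcr4 and 0.325 to 1 for Ccr1. The replicate block changed no adjusted call. Of all genes, 1208 passed an unadjusted p under 0.05, against 1877 with the replicate block, 2314 with array weights, 2408 without WT replicate 2 and 663 without WT replicate 3; 68.8% of those calls were lower in Glis3KO2 cells, against 59.0% with the block and 56.9% with normexp and quantile normalization.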

Other observations

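Across the 48 tested members, WT replicate 1 was the highest of the 8 arrays for 17, among them Xcr1 and Cxcr4, and WT replicate 4 for 0. Glis3KO2 replicate 2 was the lowest array for 14. The same counts were not made over all genes. The endothelial markers, which could accompany Ackr1, were higher in Glis3KO2 cells for 5 of 15, with 1 lower at an unadjusted p under 0.05 (40.8% and 4.75% of all genes). All 10 smooth muscle markers had the higher mean in Glis3KO2 cells, with a median difference of 1.01, and 2 of them passed an unadjusted p under 0.05 (40.8% and 2.15% of all genes). Like Cxcl12, their centred mean was highest in Glis3KO2 replicate 2 (1.29) and lowest in WT replicates 3 and 4 (-1.07 and -1.25). Their part in the Cxcl12 values was not tested either. Of 11 Sertoli cell markers 3 had the higher mean in Glis3KO2 cells, and of 6 Leydig cell markers 1, against 40.8% of all genes.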
